A study of Homo sapiens with 9 samples.

Results

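The clustered histone genes were taken as the genes whose current symbol begins with H1-, H2AC, H2BC, H3C or H4C, each through its brightest probe set with a single gene symbol. This gave 50 of the 19775 genes measured, with 11 in class H1, 9 in H2A, 14 in H2B, 7 in H3 and 9 in H4. Of these, 46 code for protein, 3 are pseudogenes (H1-9P, H2AC5P and H4C10P) and 1, H1-10-AS1, is a long noncoding RNA that carries the prefix of its neighbour. The members were chosen by name, but the set was selected on the log2 difference of 1 member, H2BC13, which was lower in cells given caffeic acid, so the caffeic acid values below are a description and carry no test. The cells were HT29, an established human line from a colon cancer. Untreated cells (Control) were set beside cells given caffeic acid, a phenolic acid of coffee, at 1.68 µg/mL (CA) and cells given instant caffeinated coffee at 7 µg/mL (ICC), both for 24 h. Each group had 3 Affymetrix arrays numbered 1 to 3, which makes 9, and nothing in the labels says whether they were separate cultures, so p-values measure the spread between these arrays, which may be technical.

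Histones are the proteins around which DNA is wound. A pair each of H2A, H2B, H3 and H4 forms the core of a nucleosome, and H1 binds the linker DNA between cores. Most of their genes stand in clusters without introns and are transcribed in S phase, when new DNA must be packaged. Their mRNAs end in a stem-loop in place of a poly(A) tail, although some clustered genes also give polyadenylated transcripts. Labelling for this kind of array normally starts at the poly(A) tail. Most members of a core class (H2A, H2B, H3 or H4) are near-identical copies, so a probe set can also pick up RNA from a sister gene. The prefix also takes genes outside the clusters, among them the replacement linker histone H1-10 and the germ cell linker histones H1-7 and H1-8.

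Promoters are shown for the 4 genes on which the account below turns: H2BC13, for which the set was chosen, H2BC21 and H2AC25, which differed by replicate number, and H1-10, the highest against control with ICC. Each line gives the 250 bases before the transcription start, 5′ to 3′ on the gene's own strand, from RefSeq (GRCh38.p14). Capitals mark the letters TATAAA of the TATA box, CCAAT, the octamer ATTTGCAT that is known from H2B promoters, and the H1 box AAACACA, each on either strand. The windows are chr6:27807930-27808179 for H2BC13, chr1:149886683-149886932 for H2BC21, chr1:228457874-228458123 for H2AC25 and chr3:129316287-129316536 for H1-10, all on the minus strand.
H2BC13: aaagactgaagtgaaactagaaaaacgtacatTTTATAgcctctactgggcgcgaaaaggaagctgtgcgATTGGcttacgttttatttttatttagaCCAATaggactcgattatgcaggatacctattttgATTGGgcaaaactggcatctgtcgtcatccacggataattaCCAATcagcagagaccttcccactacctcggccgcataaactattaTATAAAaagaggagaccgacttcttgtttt
H2BC21: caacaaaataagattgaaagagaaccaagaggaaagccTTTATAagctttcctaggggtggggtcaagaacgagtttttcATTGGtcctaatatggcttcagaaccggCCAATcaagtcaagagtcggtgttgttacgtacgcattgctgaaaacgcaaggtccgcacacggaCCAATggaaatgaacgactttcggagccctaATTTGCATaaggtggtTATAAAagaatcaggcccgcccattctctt
H2AC25: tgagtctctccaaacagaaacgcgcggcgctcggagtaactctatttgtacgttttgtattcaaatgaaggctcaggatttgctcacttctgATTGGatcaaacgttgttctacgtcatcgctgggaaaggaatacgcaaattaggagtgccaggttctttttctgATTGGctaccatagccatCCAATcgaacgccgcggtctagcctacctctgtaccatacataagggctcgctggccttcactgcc
H1-10: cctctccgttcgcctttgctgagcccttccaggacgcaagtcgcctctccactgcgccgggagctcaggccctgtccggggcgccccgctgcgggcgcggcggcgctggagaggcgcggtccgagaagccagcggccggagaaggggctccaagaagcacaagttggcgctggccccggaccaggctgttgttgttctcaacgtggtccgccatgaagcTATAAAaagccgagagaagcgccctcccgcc

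In H2BC13 and H2BC21 a TATA box begins 30 bases before the start, and in H1-10 it begins 31 bases before it. H2BC21 has the octamer 46 bases before the start, and H2BC13 has CCAAT or its reverse complement at 4 places. H2AC25 has it at 3 places, and in its window the letters TATAAA were not found. Over the 43 histone genes with a promoter in the RefSeq table, CCAAT was found in 86% against 33% of all 27305 promoters, and TATAAA in 65.1% against 11.1%. The octamer was found in 10 of 13 H2B and 6 of 8 H2A promoters and in 1.66% of all promoters. The H1 box was found in 7 of 9 H1 promoters and in 4.95% of all promoters. These matches describe letters in a window and do not show that a factor binds there. The genes without an entry were H1-9P, H1-10-AS1, H2AC5P, H2BC12L, H3C11, H4C1 and H4C10P.

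Array medians of the intensity ranged from 43.8 to 46.6, and precision is set by having 3 arrays in a group. Values are given as log2 of the deposited intensity. Many histone genes were dim as read by probe sets of a single gene. Others were bright, with H1-10 at a mean of 10.16 and H2BC12 at 9.24. A probe set that matches 14 H4 genes, and so stands for no single gene, was brighter still at 11.27. The mean log2 of 23 of 50 lay below the lower quartile of all genes (4.62), where 25% of genes lie by definition, and H2BC13, H2BC21 and H2BC11 were among these 23. No detection call was available, so whether they were above background is not known here. In 28 of the 50 histone genes 2 or more arrays had an identical value, such as H1-4 at 4.84 in all 3 ICC arrays. An SD or difference near 0 can therefore rest on repeated values. The share of such genes over all genes was not counted. In the fit without replicate number, the SE of a difference between groups ranged from 0.062 to 0.18 log2 over the 50 genes. Markers of colon epithelial cells had array medians between 11.6 and 11.9, against 4.13 to 4.41 for endothelial and 4.49 to 4.90 for fibroblast markers. Of the leukocyte markers 3 of 5 were measured, PTPRC at 3.65 and CD3E at 5.27, while LYZ stood at 13.1.

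H2BC13, one of the clustered H2B genes, stood at 4.59, 4.56 and 4.61 in Control replicates 1, 2 and 3. In CA it stood at 4.27, 4.29 and 4.28, and in ICC at 4.30, 4.40 and 4.32. All 6 treated arrays lay below all 3 untreated ones, and each CA array lay below each ICC array. The CA mean was 4.28 ± 0.0088 (SD, n = 3), the ICC mean 4.34 ± 0.052 and the Control mean 4.59 ± 0.027. H2BC13 was thus -0.31 ± 0.062 log2 (SE) from control in CA (1.24-fold) and -0.25 ± 0.062 in ICC (1.19-fold). In same-numbered arrays the CA differences were -0.32, -0.27 and -0.34, and the ICC differences -0.29, -0.16 and -0.29. Both differences use the same 3 Control arrays that led to the choice of this gene, so the ICC value is not a separate test. Between replicate numbers H2BC13 barely varied, at means of 4.39, 4.41 and 4.40 in replicates 1, 2 and 3.

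**Figure D1:**
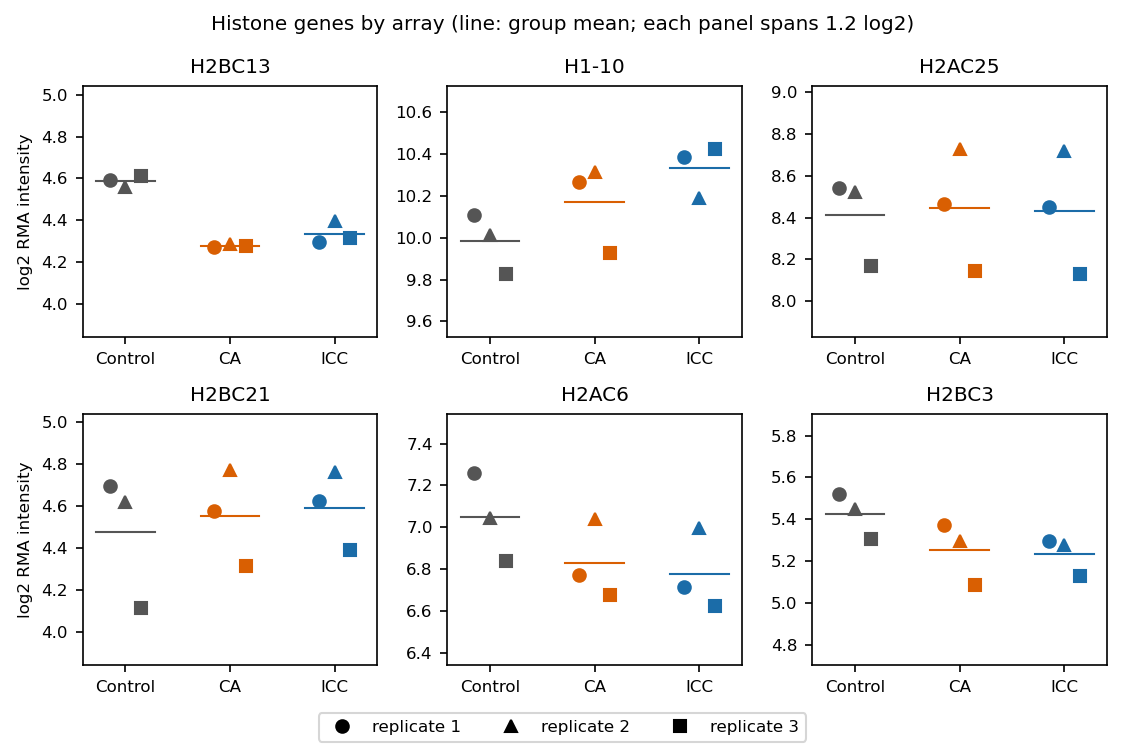
Log2 RMA intensity (vertical axis) of 6 histone genes in Control, CA and ICC, with 1 point per array, the shape giving the replicate number and the line the group mean of 3 arrays. H2BC13 is lower in all 6 treated arrays and flat over replicate numbers, while in H2AC25 and H2BC21 replicate 3 is the lowest array of every group.

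Instant coffee against untreated cells asks how the whole beverage affects these genes. The histone genes lay on both sides of control, with 27 above 0, 23 below and a median of +0.012 log2, beside +0.028 over all genes, of which 60.2% lay above 0. Of the 46 that code for protein, 23 lay above 0 and 23 below, with a median of +0.00021. The median over all 50 turned to -0.013 with arrays centred on their medians and to -0.0085 with quantile normalization again, so it has no settled direction. No histone gene passed limma's moderated test at an adjusted p under 0.05 (0 of 50, lowest adjusted p 0.614), and over all genes 0% passed. Blocking on replicate number gave 0 of 50 as well. Before adjustment, p was under 0.05 in 2 of 50, where 7.73% of all genes lay: H1-10, and H2BC13, which cannot count as a test here. Blocking raised this to 4 by adding H2AC6 and H2BC3, beside 12.4% of all genes. The 3 ICC arrays lay apart from the 3 controls in 8 histone genes, against 12% of all genes. Above control were 4 (H1-10, H1-10-AS1, H2BC9 and H3C3, beside 8.46% of all genes). Below it were 4 (H2BC3, H2BC11, H2BC13 and H2BC17, beside 3.5% of all genes). H2BC13 led to the choice of the set through the same Control arrays, so it cannot count here either, and nothing is read from this number. H2BC11, H2BC13 and H2BC17 lay below the lower quartile of all genes.

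Among the linker histones, H1-10 had the largest difference. This replacement H1, made outside S phase as well, stood at 10.11, 10.01 and 9.83 in Control, at 10.38, 10.19 and 10.42 in ICC and at 10.26, 10.31 and 9.93 in CA. Every ICC array lay above every Control array, while CA and Control overlapped. The ICC difference was +0.35 ± 0.12 (SE, n = 3 arrays in each group, 1.28-fold, adjusted p 0.614 by limma). The noncoding H1-10-AS1 stood at +0.13 ± 0.069. H1-2, a somatic linker histone of the clusters, stood at -0.019 ± 0.084, and the germ cell gene H1-7 at +0.074 ± 0.074. Of the 11 H1 genes 8 lay above 0, among them the noncoding H1-10-AS1 and the pseudogene H1-9P (+0.014). The median of the 11 was +0.057, which was +0.031 once arrays were centred and +0.025 once quantile normalized again.

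Core histone genes had smaller or opposite differences with ICC. H2AC6, an H2A gene, stood at 7.26, 7.04 and 6.84 in Control and at 6.72, 7.00 and 6.62 in ICC, groups that overlap, with a difference of -0.27 ± 0.14. H2BC3 stood at 5.52, 5.45 and 5.31 in Control and at 5.29, 5.28 and 5.13 in ICC, with the highest ICC array just below the lowest control, at -0.19 ± 0.094. H2BC17 stood at -0.16 ± 0.080 and H2BC11 at -0.14 ± 0.11, while H2BC12 and H2BC5 stood at -0.015 and -0.080. Class medians were +0.014 in H2A, -0.047 in H2B (9 of 14 below 0), +0.011 in H3 and +0.048 in H4, and those of H2A and H3 turned below 0 with arrays centred on their medians (-0.012 and -0.015) or quantile normalized again (-0.014 and -0.022). Under the same scalings the H4 median was +0.0225 and +0.0256, and the H2B median -0.0731 and -0.0365. H2AC16 at +0.14 and H4C7 at +0.12 were the highest of their classes, and none of the core genes named here passed (limma's adjusted p 0.660 or above). With the replicate block H2AC6 had an SE of 0.096 and H2BC3 an SE of 0.064. Their adjusted p by limma was then 0.341 and 0.328. In H3, H3C11 stood at -0.17 ± 0.12, H3C3 at +0.10 ± 0.072 and H3C8 at +0.010. In H4, H4C5, H4C9 and H4C11 stood between -0.086 and -0.071.

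Caffeic acid against untreated cells is the comparison from which the set was chosen. Of the 50 genes 25 lay above 0 and 25 below, with a median of -0.0015 (+0.0023 with arrays centred, +0.0027 with quantile normalization again), beside +0.0027 and 51.4% above 0 over all genes. The 3 CA arrays lay apart from the controls in 4 genes (7.86% of all genes): below it H2BC13, H2BC11 and H4C9 (3.46% of all genes) and above it H1-10-AS1 (4.4%). H2BC11, another H2B gene, stood at 4.24, 4.10 and 4.04 in Control and at 3.87, 4.01 and 3.58 in CA, a difference of -0.31 ± 0.11 (1.24-fold). Its highest CA array was just below its lowest control, and replicate 3 was the lowest of each of these groups. This probe set of H2BC11 was dim, at a mean of 3.98. The 2 probe sets that match both H2BC11 and H2BC8 were brighter, at means of 7.39 and 5.77. They went the other way in CA, at +0.45 and +0.17, so the direction of H2BC11 is not settled. H4C9, an H4 gene, stood at 6.205, 6.031 and 6.075 in Control and at 5.915, 5.848 and 5.996 in CA, a difference of -0.18 ± 0.076. H2BC12 lay at -0.18 ± 0.090 and overlapped with control. On the other side lay H1-10 at +0.19 ± 0.12, H1-6 at +0.14 ± 0.091, H4C10P at +0.14 ± 0.069 and H1-7 at +0.12 ± 0.074. Dimmer probe sets of H1-7 stood at +0.013 and +0.0050 in CA. The class medians lay between -0.029 in H4 and +0.0068 in H2A.

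**Figure D2:**
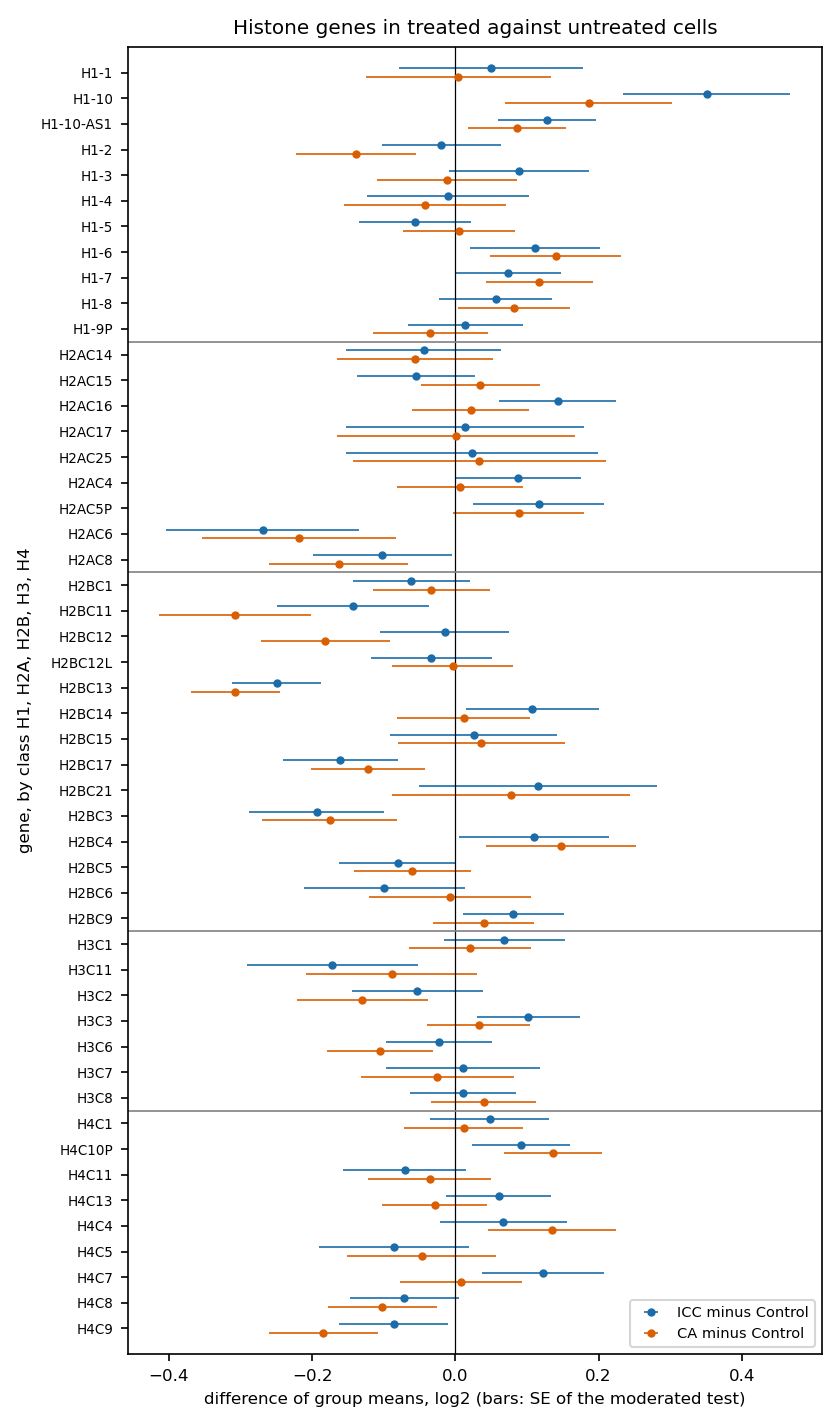
Differences of group means in log2 (horizontal axis; bars, SE of limma's moderated test, n = 3 arrays in each group) for the 50 histone genes by class, ICC minus Control in blue and CA minus Control in orange. Both share the Control arrays. Most points lie within 0.2 of 0, H2BC13 lies below 0 in both, and H1-10 lies farthest above 0.

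ICC was then set against CA, at the different doses of 7 and 1.68 µg/mL, with the same CA arrays on which the set was selected. These counts are therefore not independent of that choice and are given beside those of all genes. None of the 50 genes passed limma's test (0 of 50, where 0% of all genes did, and 0.00506% with the replicate block), and 0 had an unadjusted p under 0.05, where 2.69% of all genes lay. With the replicate block 1 gene, H2BC12, had an unadjusted p under 0.05 (5.96% of all genes, adjusted p 0.810). The highest by moderated t were H2BC12 at +0.17 ± 0.090, H2BC11 at +0.16 ± 0.11, H2AC16 at +0.12 ± 0.082 and H1-2 at +0.12 ± 0.084. The lowest were H2AC15 at -0.089, H2BC6 at -0.092, H1-5 at -0.061 and H4C4 at -0.068. H2BC13 differed by +0.058 ± 0.062 and was the 1 gene whose ICC and CA arrays lay apart (5.87% of all genes). Its low CA values led to the selection, so nothing is read from this count. Of the 50 genes 29 lay above 0 (60.6% of all genes), with a median of +0.032, beside +0.024 over all genes. This median has no settled direction: it was -0.011 without dim genes (13 of 27 above 0), +0.0019 with arrays centred, +0.0051 with quantile normalization again and +0.00047 without ICC replicate 1.

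The arrays of each group carry replicate numbers, and the labels do not say what a number marks. In limma's fit with group and replicate number as terms, 2 of 50 histone genes passed the F test of replicate number at an adjusted p under 0.05. This is not above the background, since 6.15% of all genes passed. Before adjustment 9 of 50 lay under 0.05, beside 21.9% of all genes. H2AC25, the H2A gene of a small separate cluster, stood at 8.54, 8.52 and 8.17 in Control replicates 1, 2 and 3. It stood at 8.46, 8.72 and 8.14 in CA and at 8.45, 8.72 and 8.13 in ICC. Replicate 3 was the lowest array of each group, and the treatments hardly differed (+0.023 ± 0.18 in ICC and +0.034 ± 0.18 in CA). With replicate number as a block the SE of both differences was 0.076. The adjusted p of H2AC25 in the F test was 0.0102. In this gene replicate 2 stood above replicate 3 by +0.51 ± 0.076 (1.42-fold, adjusted p 0.0193, n = 3 pairs of arrays by limma).

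H2BC21, an H2B gene known to give polyadenylated mRNA, was also lowest in replicate 3 of each group. It stood at 4.70, 4.62 and 4.11 in Control, at 4.58, 4.77 and 4.32 in CA and at 4.62, 4.76 and 4.39 in ICC. Replicate 1 was the highest array in Control, and replicate 2 in CA and ICC. Replicate 2 stood above replicate 3 by +0.44 ± 0.081 (1.36-fold, adjusted p 0.0326, F test adjusted p 0.0213). Each array was then left out in turn, which leaves fewer arrays to test. Over all genes 467 to 950 then passed the F test of replicate number, against 1217 with all arrays. The F test call of H2AC25 was lost without CA replicate 3 (adjusted p 0.0512). That of H2BC21 was lost without Control replicate 3 (0.118), CA replicate 2 (0.0507), CA replicate 3 (0.0723) or ICC replicate 2 (0.0593). For replicate 2 against 3, leaving out Control replicate 3, CA replicate 2, CA replicate 3 or ICC replicate 2 lost both genes' calls, and leaving out Control replicate 2 lost that of H2BC21 (adjusted p up to 0.106 for H2AC25 and 0.185 for H2BC21). The differences stayed between +0.46 and +0.59 for H2AC25 and between +0.37 and +0.50 for H2BC21. A dimmer probe set of H2AC25, which ends in _x_at, differed by +0.094 between replicates 2 and 3, and with the mean of both probe sets the gene did not pass (+0.30, adjusted p 0.136).

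Most other histone genes also lay higher in replicate 2 than in replicate 3. The mean difference was above 0 in 40 of 50, where 48.8% of all genes lay above 0, with a median of +0.095 log2 beside -0.0028 over all genes. It was above 0 in 9 of 9 H2A genes (median +0.13), 11 of 14 H2B (+0.14), 9 of 11 H1 (+0.063), 7 of 9 H4 (+0.058) and 4 of 7 H3 (+0.0010). Beside the 2 calls (1.73% of all genes), both higher (0.936%), 7 genes (14.4% in either direction) had an unadjusted p under 0.05, all higher in replicate 2 (7.39% of all genes), and 0 were lower (6.99%). These were H2AC6 at +0.31, H2AC17 at +0.35, H2BC3 at +0.17, H2BC4 at +0.19 and H2BC12 at +0.17 with the 2 named above. In 16 genes replicate 2 was above replicate 3 in all 3 groups (16.6% of all genes), and in 3, H3C2, H4C8 and H4C9, it was below in all 3 (16.7%). H3C2 stood at -0.13, with -0.15 in Control, -0.12 in CA and -0.13 in ICC. Among the H2A genes, H2AC17 varied most between groups, at +0.74 in Control, +0.29 in CA and +0.0060 in ICC. H2AC14 differed by +0.12 and H2BC5 and H2BC12L, whose probe sets end in _x_at, by +0.12 and +0.15.

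**Figure D3:**
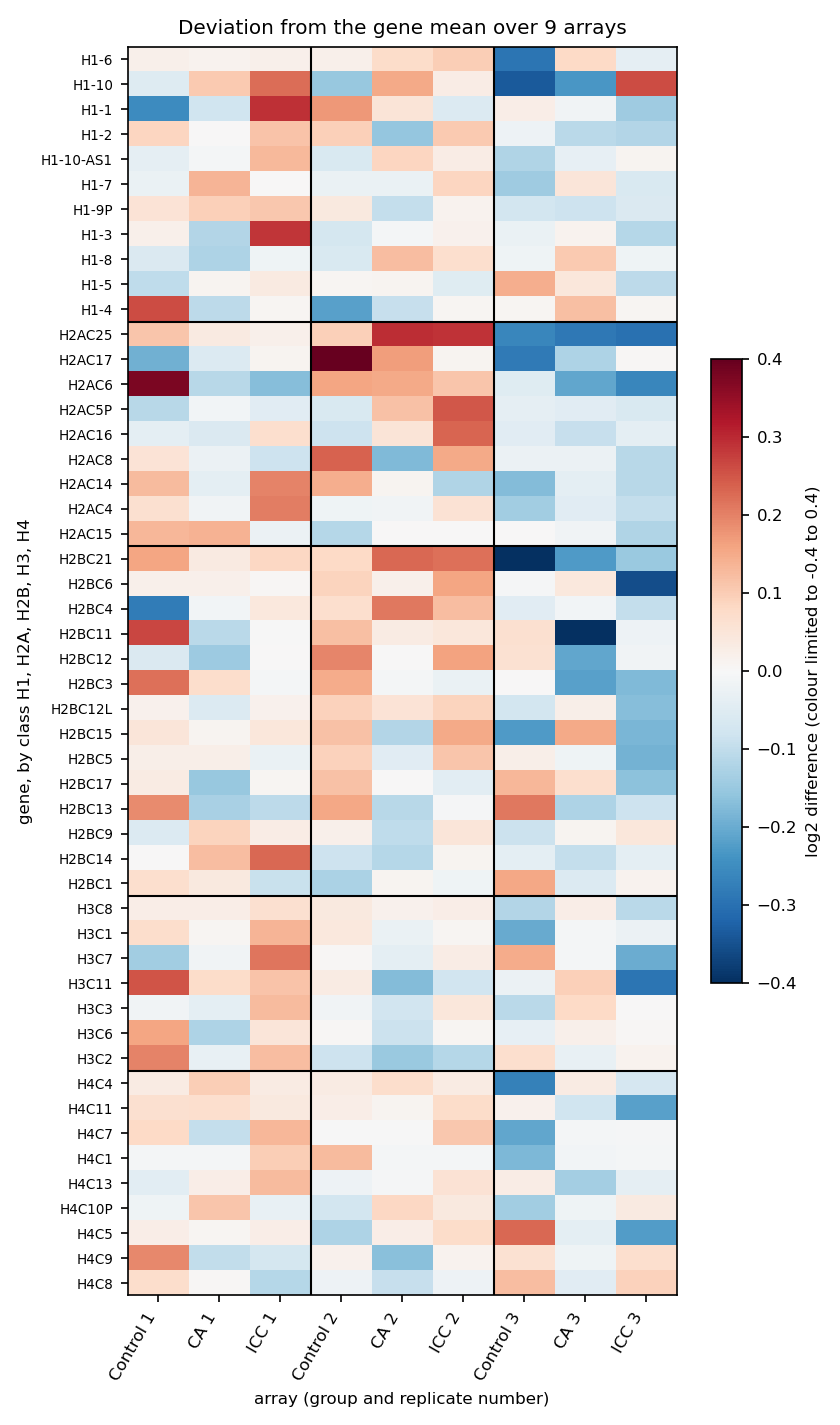
Log2 deviation of each of the 50 histone genes (rows, by class) from its mean over the 9 arrays (columns, by replicate number), red above and blue below the mean. The H2A and H2B rows are mostly red in the replicate 2 columns and blue in the replicate 3 columns, and the H2BC13 row is red in the 3 Control columns.

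Replicate 1 differed less from the mean of the others. Of the 50 genes 37 lay above 0 with a median of +0.044, beside 60.2% above 0 and a median of +0.027 over all genes. None passed for this contrast by limma (0 of 50, while 5.07% of all genes did), and 5 had an unadjusted p under 0.05 (19.7% of all genes). All 7 H3 genes lay above 0, led by H3C11 at +0.22 ± 0.080 (adjusted p 0.168) and H3C2 at +0.15 ± 0.057 (adjusted p 0.188).

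Genes that accompany histone synthesis were set beside these values. Of 20 S phase genes listed, 19 were measured, and replicate 2 lay below replicate 3 in 16 of them, with a median of -0.12 log2 against +0.095 in the histone genes. Replicate 2 was below replicate 3 in all 3 groups in 10 of the 19, as in 16.7% of all genes. Replicate 1, in contrast, lay above the mean of the others in 19 of 19 S phase genes (median +0.13), on the same side as 37 of 50 histone genes (+0.044) and 60.2% of all genes. At an unadjusted p under 0.05 were 6 of these 19 (19.7% of all genes), and 0 passed. Between replicates 2 and 3 the helicase subunit MCM4 passed, at -0.34 (limma's adjusted p 0.0410), where 1.73% of all genes passed. With any 1 array left out it passed for this contrast in 1 of 9 cases. In the same comparison of replicates 2 and 3, the replication clamp PCNA stood at -0.034 and RRM2, a subunit of ribonucleotide reductase, at +0.037. Between replicates 2 and 3 the histone and S phase lists kept their directions with arrays centred on their medians (+0.11 and -0.11) or quantile normalized again (+0.098 and -0.13). The part of cell cycle state in the histone values was not tested.

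Of 21 genes for transcription of histone genes and processing of their mRNA, 19 were measured. ZNF473, a zinc finger protein of the U7 complex that cuts the 3′ end of histone mRNA, was +0.54 higher in replicate 2 than in replicate 3. Its adjusted p by limma was 0.0315, where 1.73% of all genes passed. The call was lost for this contrast in 5 of 9 cases with 1 array left out. SLBP, which binds the stem-loop, differed by -0.0083, and NPAT, the coactivator of histone genes, by +0.098. With ICC 0 of the 19 passed and 2 had an unadjusted p under 0.05, TUT7 at -0.21 and the cap-binding protein NCBP1 at -0.16. Over all genes 0% passed and 7.73% had such a p, which also stands beside the ICC counts that follow. Of 21 histone chaperones, which carry histones to DNA, 0 passed with ICC and 3 had an unadjusted p under 0.05: RBBP4 at -0.31, NAP1L4 at -0.21 and CABIN1 at +0.25. In replicate 1 against the others 19 of 21 chaperones lay above 0 (median +0.098, 60.2% of all genes above 0), and 2 passed, HJURP at +0.39 (limma's adjusted p 0.0153) and CHAF1B at +0.34 (0.00688), where 5.07% of all genes passed. Of 11 replacement histones listed, 8 were measured and 0 passed with ICC, with H3-3A at +0.23. H2AX, the variant phosphorylated at DNA breaks, was higher in replicate 1 than in the others by +0.33 and passed the F test (adjusted p 0.0474). Of the 19 S phase genes 0 passed with ICC, and 1, POLA1, had an unadjusted p under 0.05, at -0.25.

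**Figure D4:**
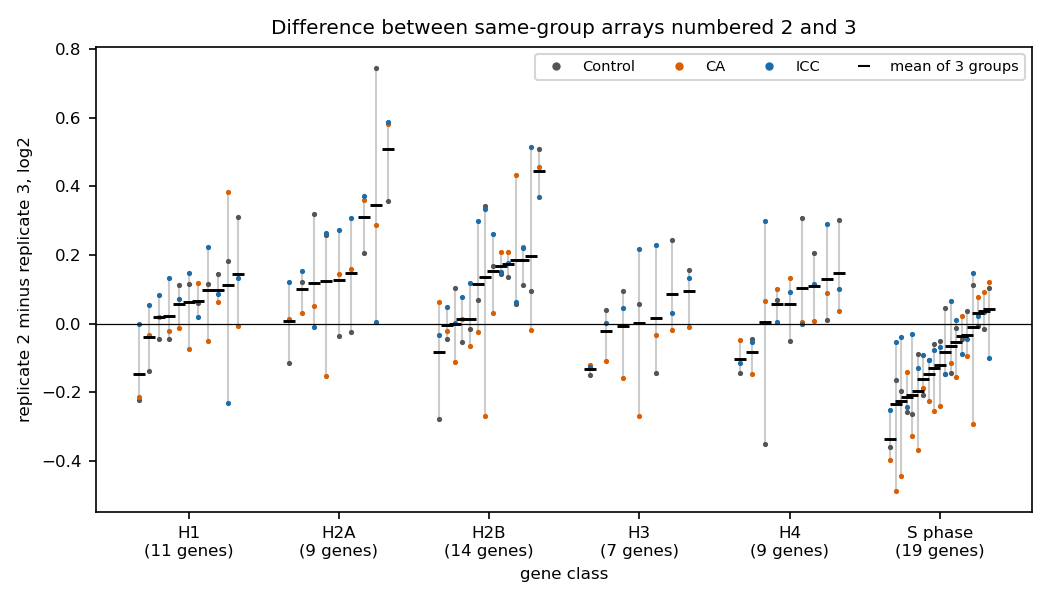
Replicate 2 minus replicate 3 in log2 (vertical axis) for each histone gene by class and for 19 S phase genes, with a coloured point for each group and a black dash for the mean of the 3 groups. All 9 dashes of H2A lie above 0, and 16 of the 19 dashes of the S phase genes lie below it.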

How the data were processed

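RNA of 9 HT29 samples was hybridised to Affymetrix HG-U133 Plus 2.0 arrays. The submitters' processing notes name RMA for the deposited intensity values. Its version was not given in the sources used here. Linear intensity was deposited for 54675 probe sets, and log2 was taken. The platform annotation gave 41091 probe sets 1 gene symbol, 1801 several and 11721 none; 62 were controls. For 19775 genes the brightest probe set was kept, with no filter on dim genes. Of the 50 histone genes, 7 had several probe sets and 11 were read by one ending in _x_at or _s_at. H1-10, H2AC6 and H2BC21 were among these 11, each read by a probe set ending in _s_at.

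Genes were fitted with limma 3.58.1 in R 4.3.3 over all genes and 9 arrays, with Benjamini-Hochberg adjustment and a threshold of 0.05. The test was tested on simulated data. Figures used matplotlib 3.10.9 in Python 3.11.15. With 3 against 3 arrays an exact permutation test cannot go below 0.1. Deviations of same-numbered arrays correlated at 0.327 to 0.518 in all 9 pairs, so the number pairs the arrays. A fit with it as a block stands beside part of the results. Over the 50 histone genes alone these correlations ranged from -0.0925 to 0.337. Alternatives were other scalings, an offset of 16, a filter on dim genes, other probe set choices, the block, and each array left out.

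Named genes were H2BC13, the 3 brightest of each class, the 4 highest and 4 lowest by moderated t in each comparison, the 6 with the smallest F test p, and up to 3 of each other list by p with ICC. H1-9P, H2AC5P, H2AC17, H2BC4, H2BC9, H4C8, ZNF473, SLBP, NPAT, MCM4, PCNA, RRM2, HJURP, CHAF1B and H2AX are not covered by that rule: these names were picked with their values in view. The members and lists were chosen with earlier results of these data known.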

Additional observations from a re-analysis of the deposited data

How the results depend on the processing

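With ICC against control and ICC against CA, 0 histone genes were called under any alternative, including each array left out and the replicate block, which changed no call. At an unadjusted p under 0.05 the 2 genes of ICC against control (7.73% of all genes) became 4 with the replicate block (12.4% of all genes). They became 4 with quantile normalization applied again and 4 with arrays centred on their medians. They became 1 without dim genes (27 histone genes left) and 1 when _x_at and _s_at probe sets were dropped. The last 2 settings test fewer genes. With 1 array left out the genes of ICC against control were 2 to 3. For ICC against CA the count of 0 (2.69% of all genes) became 1 with the replicate block (5.96%), and 0 to 2 with 1 array left out. In settings other than the block the shares over all genes were not counted, so these counts have no background there. The median of ICC against control ranged from -0.029 (without Control replicate 3; it was -0.022 without ICC replicate 1) to +0.059 (without ICC replicate 3), that of CA from -0.047 (without Control replicate 3) to +0.00014, and that of ICC against CA from +0.00047 to +0.063, and it was -0.011 without dim genes; the cause was not tested. A count at an unadjusted p was not run for CA, which chose the set.

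By replicate number, the 2 histone genes that passed the F test became 1 without dim genes, 1 when probe sets of a gene were averaged and 1 when _x_at and _s_at probe sets were dropped, and 0 to 2 with 1 array left out. For replicate 2 against 3 the 2 calls became 1 in these settings and 1 with 16 added before log2, and 0 to 2 with 1 array left out. H2BC21 is dim and has 1 probe set, which ends in _s_at. It was therefore taken out, not tested, without dim genes and when _x_at and _s_at probe sets were dropped. Beyond the F test with 1 array left out, shares over all genes were not counted for these alternatives. For replicate 1 the 0 calls became 0 to 1 (H3C11 without CA replicate 3, adjusted p 0.0470), and the median lay between +0.039 and +0.074. The genes above 0 in replicate 2, counted as a choice after seeing the data, were 40 of 50, 22 of 27 without dim genes, and 33 to 41 with 1 array left out, with medians between +0.058 and +0.13. For replicate 1 they were 37, 23 of 27 and 32 to 40. Of the 460 values of 30 named genes under alternatives in each comparison, the sign changed in 28 for ICC against control, 23 for ICC against CA, 24 for CA, 29 for replicate 1 and 20 for replicate 2 against 3, none of them a call. Dim signal limits what can be seen in the 23 genes below the lower quartile.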

Other observations

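A further 20 probe sets match histone genes but carry several gene symbols, and so stand for no single gene above. Between replicates 2 and 3 they lay above 0 in 17 of 20, with a median of +0.067 log2 and a range from -0.21 to +0.61, beside a median of -0.0046 over all 54613 probe sets. None of the 20 passed limma's F test of replicate number when probe sets were tested singly, where 4.72% of all probe sets did. With ICC they lay above control in 8 of 20 (median -0.059), and with CA in 11 of 20 (median +0.015, range -0.26 to +0.45). The brightest of the 20, at a mean of 11.27, matches 14 H4 genes. It stood at -0.0998 ± 0.13 (SE) between replicates 2 and 3 and at -0.22 ± 0.14 with ICC. Dimmer probe sets of the same 14 genes stood at -0.26, +0.031, +0.013 and +0.067 with ICC. Between replicates 2 and 3 they stood at +0.042, -0.21, +0.089 and +0.040. The median of the H4 class was +0.048 with ICC. The 2 that match H2BC11 and H2BC8 stood at +0.45 and +0.17 with CA and at +0.094 and -0.17 with ICC. For ICC against CA they stood at -0.35 and -0.34, while the probe set of H2BC11 alone stood at +0.16.

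Probe sets of 1 gene did not always move alike. The 2 probe sets of H2BC5 differed from control with ICC by -0.080 and -0.017, and those of H2AC25 by +0.023 and +0.22. The 2 probe sets of H4C8 stood at -0.071 and -0.083 with ICC, but at -0.10 and +0.067 between replicates 2 and 3. Those of H1-6 lay at +0.15 and -0.10 in that comparison. H1-7 had 3 probe sets, which stood at +0.074, +0.25 and +0.0095 with ICC and at +0.12, +0.013 and +0.0050 with CA.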
